A study of Mus musculus with 16 samples.

Results

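The 10 genes described here encode proteins that the liver secretes to bind and carry other molecules: the orosomucoids Orm1, Orm2 and Orm3, the haemoglobin and haem binders Hp and Hpx, the copper and iron proteins Cp and Lcn2, the inter-alpha-trypsin inhibitor heavy chains Itih3 and Itih4, and albumin, Alb. They were chosen by gene symbol, with earlier results of these data known, and each had 1 probe set on the array. All 10 were among the 15908 genes tested, because each lay above the 30th percentile and above the median of its array in 16 of 16 arrays.

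Whole-liver RNA of 16 male C57Bl/6 samples was hybridised to whole-transcript arrays, 4 in each group. The groups were WT untreated, WT given 1 mg/kg LPS (lipopolysaccharide, the bacterial cell-wall component sensed by Toll-like receptor 4), S534A untreated and S534A given 1 mg/kg LPS. In S534A mice, a serine codon of p65, the NF-kB subunit encoded by Rela, was changed to an alanine codon in the germline, so that every cell carried it. The knock-in came from 2 embryonic stem cell clones, the neo cassette was removed by crossing with FLPe mice, and the line was backcrossed for 5 generations to C57Bl6/J and bred to homozygosity. The series text gives the LPS dose for the untreated S534A group as well, and the sample titles, which call it untreated, were followed. None of the sources used here gives the time after LPS, and no vehicle-injected group was analysed here. The labels do not say whether replicates were separate animals, so the p-values measure the spread between these samples. In whole liver, fewer cells of a type and less RNA per cell cannot be told apart.

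Acute-phase proteins are plasma proteins, made mostly by hepatocytes, whose concentrations change during inflammation. Interleukin-6 acting through STAT3, and interleukin-1 and tumour necrosis factor acting through NF-kB and C/EBP factors, are the textbook inducers of their genes. Carriers of this kind hold back free haemoglobin, haem and iron, bind drugs and small lipids, or attach to hyaluronan in the matrix, whereas albumin is counted among the proteins whose production falls.

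Promoter sequences are shown for the genes with the 3 largest LPS differences (Orm2, Orm3 and Lcn2), for Itih4, the only gene of the 8 with a STAT match, and for Alb, whose level moved least. RefSeq entries of GRCm38.p6 were matched for 8 of the 10 genes. Orm1 and Hp were not matched. Sequences run 5′ to 3′ on the strand of the gene and end just before the annotated start, except that the Orm2 and Orm3 stretches end 91 bases before it. The RefSeq gene span of Orm3 begins at 63356069, upstream of the promoter start used here. Distances for Orm3 hold for that promoter start only. They lie at chr4:63362199-63362358 (plus strand) for Orm2, chr4:63355908-63356067 (plus) for Orm3, chr2:32387740-32387989 (minus) for Lcn2, chr14:30886226-30886475 (plus) for Itih4 and chr5:90460620-90460869 (plus) for Alb. Capitals mark matches, on either strand, to the letters TTNNGNAA (C/EBP), to TTCNNNGAA (STAT) or to GGG and CC with any 5 bases between them (NF-kB).

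Orm2: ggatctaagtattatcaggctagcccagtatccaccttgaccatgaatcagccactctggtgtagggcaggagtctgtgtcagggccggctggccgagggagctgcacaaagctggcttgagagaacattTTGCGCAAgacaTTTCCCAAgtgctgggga

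Orm3: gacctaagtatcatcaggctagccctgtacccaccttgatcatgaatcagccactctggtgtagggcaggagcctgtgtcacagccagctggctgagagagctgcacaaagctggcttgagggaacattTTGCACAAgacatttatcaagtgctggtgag

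Lcn2: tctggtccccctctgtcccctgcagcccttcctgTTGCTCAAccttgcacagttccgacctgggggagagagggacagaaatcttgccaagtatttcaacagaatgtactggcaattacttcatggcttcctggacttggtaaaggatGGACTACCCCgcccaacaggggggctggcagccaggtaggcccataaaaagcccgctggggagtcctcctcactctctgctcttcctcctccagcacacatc

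Itih4: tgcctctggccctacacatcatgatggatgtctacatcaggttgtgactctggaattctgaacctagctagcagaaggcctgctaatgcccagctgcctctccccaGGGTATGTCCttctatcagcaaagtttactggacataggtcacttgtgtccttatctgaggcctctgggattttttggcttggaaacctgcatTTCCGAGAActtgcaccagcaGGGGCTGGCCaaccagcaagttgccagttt

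Alb: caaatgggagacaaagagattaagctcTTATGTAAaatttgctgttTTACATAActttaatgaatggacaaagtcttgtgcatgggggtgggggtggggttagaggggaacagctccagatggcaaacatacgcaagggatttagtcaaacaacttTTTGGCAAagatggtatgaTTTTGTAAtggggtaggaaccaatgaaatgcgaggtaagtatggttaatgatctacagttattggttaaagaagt

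Within the 250 bases before the start, the C/EBP letters occurred in 6 of the 8 genes (Orm2, Orm3, Hpx, Cp, Lcn2 and Alb), against 36.8% of 32851 RefSeq promoter windows of that length. The NF-kB letters occurred in Cp, Lcn2 and Itih4, against 45.8% of windows. The STAT letters were found only in Itih4, 51 to 43 bases before its start, against 7.02% of windows, and TATAAA in Orm2, Orm3 and Cp, against 12.4%. Cp had 2 annotated starts, each with a window, and its NF-kB and TATAAA matches lay before start 2 only. No printed matches of different motifs overlapped. Orm2 and Orm3 are close copies: 218 of 245 aligned upstream bases (89%) were identical, and the C/EBP match that starts 120 bases before the start of Orm2 (TTGCGCAA) and 121 before that of Orm3 read TTGCACAA in the latter. Alb held 4 C/EBP matches. A match is a description of letters and not a binding site.

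In WT liver, 9 of the 10 genes were higher after LPS and none was lower (limma, adjusted p under 0.05). Of all genes tested, 14.9% were called higher and 29.9% lower. The median log2 difference was 0.56 over the 10 genes and -0.05 over all genes. Because the 10 were chosen with earlier results of these data known, these comparisons with all genes are descriptions. In each of the 9, all 4 LPS values lay above all 4 untreated values, an arrangement seen in this direction for 12.7% of all genes. The rises ran from 0.28 for Hpx to 4.30 for Lcn2, and Alb alone was not called. The gains fell into a group of 3 with rises of 1.28 or more (Lcn2, Orm2 and Orm3) and a group of 6 with rises of 0.28 to 0.60. The 6 also started nearer the top of the scale. Their untreated values came within 0.59 (Hpx) to 1.69 (Cp) of the array maximum, against 3.68 for Orm2, 3.94 for Lcn2 and 6.84 for Orm3. Whether compression near the maximum had a part in this split was not tested.

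**Figure D1:**
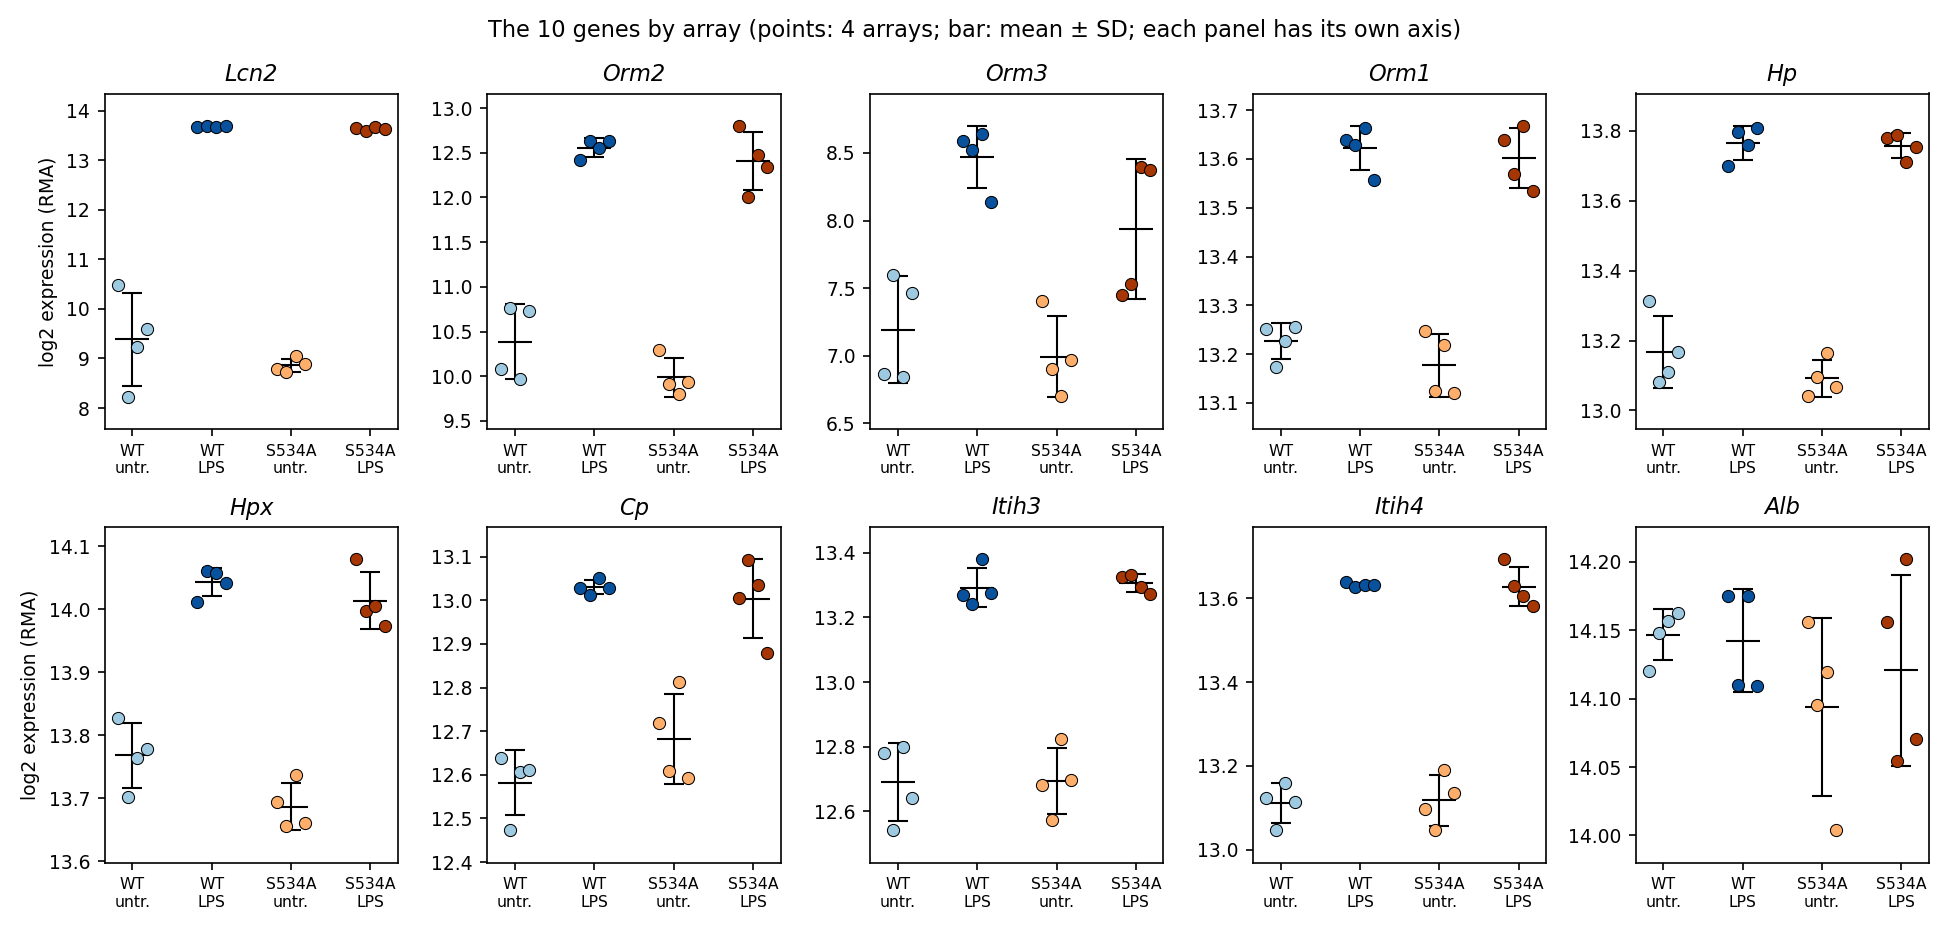
Log2 expression (RMA) of the 10 genes in each of the 16 arrays, with the group mean and SD as a bar; each panel has its own axis. LPS values lie above untreated values within each genotype for every gene except Alb, and the 4 untreated WT values of Lcn2 run from 8.23 to 10.48 while the 4 after LPS lie between 13.67 and 13.69.

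Lcn2 encodes lipocalin 2 (siderocalin), which binds bacterial siderophores and so keeps iron from microbes. Its log2 values in untreated WT liver were 10.48, 8.23, 9.24 and 9.59 in replicates 1 to 4, and after LPS 13.67, 13.68, 13.67 and 13.69. In S534A liver they were 8.78, 8.73, 9.04 and 8.88 untreated and 13.64, 13.58, 13.67 and 13.64 after LPS. The untreated WT values were spread widely and the values after LPS hardly at all, and treated and untreated groups were far apart. The log2 difference was 4.30 ± 0.29 (SE) in WT, or 19.6-fold, with an adjusted p of 3.16e-09, and it stood 28th from the top of 15908 genes. In S534A it was 4.77 ± 0.29, or 27.4-fold, with an adjusted p of 8.48e-10. The SE is the same in both because the fit shares 1 spread over the 4 groups. Their SDs were 0.93 in untreated WT, 0.14 in untreated S534A, and 0.007 and 0.037 after LPS in WT and S534A. Against the spread of its own groups, the SE is too small for the WT difference and too large for the S534A one. A limma fit of the WT groups alone gave an adjusted p of 6.12e-06.

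The pooled SD of Lcn2 was 0.67 in untreated groups and 0.027 after LPS. Its values after LPS came within 0.70 of the highest value on the array, against 3.94 or more below it when untreated. Whether the signal was compressed there was not tested.

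Orm2 encodes an orosomucoid (alpha-1-acid glycoprotein), an abundant plasma lipocalin that binds basic drugs and small lipophilic molecules. Its log2 values in WT were 10.08, 10.76, 9.97 and 10.73 untreated and 12.42, 12.63, 12.55 and 12.63 after LPS. In S534A they were 10.30, 9.91, 9.80 and 9.94 untreated and 12.80, 12.01, 12.47 and 12.34 after LPS. Every value after LPS lay above every untreated value of either genotype, by 1.25 at the closest. The rise was 2.17 ± 0.18 (4.50-fold, adjusted p = 5.11e-08) in WT and 2.42 ± 0.18 (5.35-fold, adjusted p = 1.29e-08) in S534A.

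Orm3 is the paralogue beside Orm2 on chromosome 4. Its untreated WT values were 6.87, 7.60, 6.85 and 7.47, and those after LPS 8.59, 8.52, 8.64 and 8.14. The S534A values were 7.41, 6.90, 6.70 and 6.97 untreated and 7.45, 7.53, 8.40 and 8.37 after LPS. Within each genotype the groups did not overlap, although in S534A the highest untreated and the lowest LPS value differed by little. The difference was 1.28 ± 0.23 (2.43-fold, adjusted p = 0.000239) in WT and 0.94 ± 0.23 (1.92-fold, adjusted p = 0.00302) in S534A.

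Orm1, the neighbour of Orm3 in the same cluster, was also higher after LPS. Its log2 values in WT lay between 13.17 and 13.25 untreated and between 13.56 and 13.66 after LPS; in S534A the ranges were 13.12 to 13.25 and 13.53 to 13.67, with no overlap in either genotype. The rise was 0.40 ± 0.06 in WT (1.32-fold, adjusted p = 2.75e-05) and 0.43 ± 0.06 in S534A (1.34-fold, adjusted p = 1.27e-05). Its values after LPS came within 0.73 of the array maximum. Transcripts of the 3 orosomucoid genes are similar, and how far a probe set of one also binds another's transcript was not assessed, so their separate differences are uncertain to that extent. The lncRNA Gm52743 overlaps Orm1 by 52 bases in RefSeq.

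Hp and Hpx protect against the products of red cell breakdown: haptoglobin binds free haemoglobin and hemopexin binds free haem. Hp read 13.31, 13.08, 13.11 and 13.17 in untreated WT and 13.70, 13.80, 13.76 and 13.81 after LPS. In S534A it read 13.04, 13.10, 13.16 and 13.07 untreated and 13.78, 13.79, 13.71 and 13.75 after LPS. All treated values were above all untreated values, and the rise was 0.60 ± 0.06 in WT (1.51-fold, adjusted p = 6.58e-07) and 0.67 ± 0.06 in S534A (1.59-fold, adjusted p = 1.78e-07). Its values after LPS came within 0.61 of the array maximum.

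Hpx had the smallest rise among the 9 in WT. WT values lay between 13.70 and 13.83 untreated and between 14.01 and 14.06 after LPS; S534A values went from 13.66 to 13.74 untreated and from 13.97 to 14.08 after LPS, again without overlap. Its rise came to 0.28 ± 0.05 in WT (1.21-fold, adjusted p = 0.000465) and 0.33 ± 0.05 in S534A (1.25-fold, adjusted p = 8.95e-05). It came within 0.36 of the array maximum. With each array centred on its median, the WT rise was 0.17 and its adjusted p 0.0165.

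Cp encodes ceruloplasmin, the plasma ferroxidase that carries most circulating copper. WT values lay between 12.47 and 12.64 untreated and between 13.01 and 13.05 after LPS; the S534A ranges were 12.59 to 12.81 and 12.88 to 13.09. The gap between groups was narrow in S534A, though they did not overlap. The rise was 0.45 ± 0.07 in WT (1.36-fold, adjusted p = 3.67e-05) and 0.32 ± 0.07 in S534A (1.25-fold, adjusted p = 0.00085). In RefSeq, Cp shares 13806 bases of its span with Hps3, whose own log2 difference was -0.58 ± 0.15 in WT.

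Itih3 and Itih4 lie side by side on chromosome 14. Heavy chains of the inter-alpha-trypsin inhibitor family can be transferred to hyaluronan, and ITIH4 is a plasma acute-phase protein that lacks the bikunin partner of the other chains. Itih4 read 13.12, 13.05, 13.16 and 13.11 in untreated WT and 13.64, 13.63, 13.63 and 13.63 after LPS. In S534A it read 13.10, 13.05, 13.19 and 13.14 untreated and 13.69, 13.63, 13.61 and 13.58 after LPS. The treated WT values were almost identical and well clear of the untreated ones. The rise was 0.52 ± 0.06 in WT (1.44-fold, adjusted p = 8.09e-07) and 0.51 ± 0.06 in S534A (1.42-fold, adjusted p = 9.91e-07), and values after LPS came within 0.73 of the array maximum. Itih3 rose by 0.60 ± 0.07 in WT (adjusted p = 2.68e-06) and 0.61 ± 0.07 in S534A (adjusted p = 2.17e-06), from an untreated range of 12.54 to 12.83 over both genotypes to 13.24 to 13.38.

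Alb, the main plasma protein, which carries fatty acids, bilirubin and drugs, was the gene without a call. It read 14.12, 14.15, 14.16 and 14.16 in untreated WT and 14.18, 14.11, 14.17 and 14.11 after LPS. In S534A it read 14.16, 14.10, 14.12 and 14.00 untreated and 14.16, 14.05, 14.20 and 14.07 after LPS. The groups overlapped in both genotypes. Its log2 difference was -0.0045 ± 0.06 in WT (95% interval -0.13 to 0.12, adjusted p = 0.964) and 0.03 ± 0.06 in S534A (-0.095 to 0.149, adjusted p = 0.737). Alb came within 0.20 of the array maximum, and centring the arrays on their medians gave -0.11 in WT (adjusted p = 0.165).

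**Figure D2:**
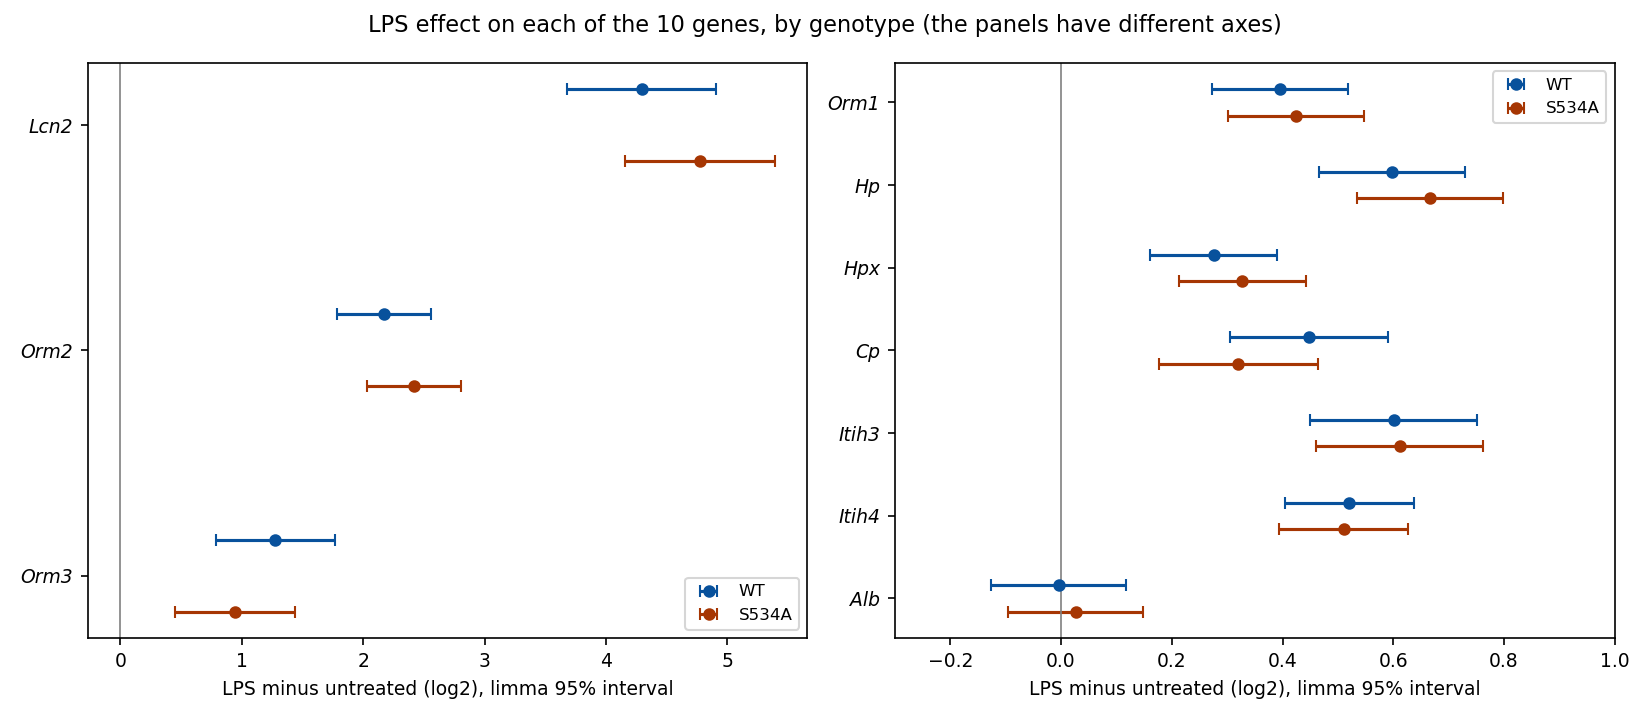
Log2 difference (LPS minus untreated) of each gene in WT and S534A, with limma's 95% interval; the left panel holds the 3 genes with the largest rises and has a wider axis than the right. Intervals of all genes but Alb lie above 0, and WT and S534A intervals overlap for every gene.

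In S534A liver, 9 of the 10 genes were again higher and none lower, against 14.2% and 31.2% of all genes, and the median difference was 0.56 against -0.03. All 9 had groups that did not overlap, as did 16.4% of all genes in this direction.

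The S534A comparison asks whether the substitution alters these levels. After LPS, 0 of the 10 differed between S534A and WT, as did 0% of all genes. At an unadjusted p under 0.05 there were 477 of 15908 genes and 1 of the 10, Orm3. Its S534A minus WT value was -0.54 ± 0.23 (95% interval -1.03 to -0.04, adjusted p = 1, limma). The groups overlapped: S534A replicates 3 and 4 lay among the WT values, and replicates 1 and 2 lay below them. Lcn2 values in S534A lay just below all those of WT (log2 difference -0.05, 95% interval -0.66 to 0.57), and 2.03% of all genes had groups that did not overlap in either direction. In the fit of the LPS groups alone, in which the wide untreated spread of Lcn2 plays no part, the standard error was 0.065 and the adjusted p 0.999. For the 7 genes other than Lcn2, Orm2 and Orm3, the intervals reached at most 0.17 from 0.

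Without treatment, 0 of the 10 differed between genotypes, against 0.0126% of all genes. At an unadjusted p under 0.05 there were 1412 genes and 1 of the 10. Orm2 was that gene, with a log2 difference of -0.40 ± 0.18 (95% interval -0.79 to -0.01, adjusted p = 0.549), and S534A replicate 1 lay among the WT values. Lcn2 differed by -0.52 ± 0.29 (adjusted p = 0.645), its S534A values of 8.73 to 9.04 lying inside the WT range. The Lcn2 value was -0.16 without WT untreated replicate 1 and -0.91 without replicate 2.

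The test of the difference in LPS effect (interaction) called 0 of the 10 and 0% of all genes, with 766 of 15908 at an unadjusted p under 0.05 and none of the 10. For Lcn2 the LPS difference was larger in S534A by 0.48 ± 0.41 (95% interval -0.39 to 1.35), and for Orm2 by 0.25 ± 0.26. For Orm3 the interaction was -0.34 ± 0.33 and for Cp -0.13 ± 0.10. The values for Lcn2 and Orm2 depended on the untreated arrays: without WT untreated replicate 1 or 2 the Lcn2 value was 0.11 or 0.86, and without the 3 untreated arrays of negative clock score, described below, it was 0.06 and that of Orm2 0.55. Leaving out 1 replicate at a time gave 0.12 to 0.39 for Orm2 and -0.49 to -0.17 for Orm3. The intervals for Lcn2, Orm2 and Orm3 are wide, so a difference of moderate size in these 3 was not detectable with 4 arrays a group. For Cp the interval ran from -0.33 to 0.07 and for Itih4 from -0.18 to 0.16. Rela itself was higher after LPS by 1.22 ± 0.08 in WT and 1.41 ± 0.08 in S534A; its level does not check the genotype labels, since the substitution leaves the transcript in place.

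**Figure D3:**
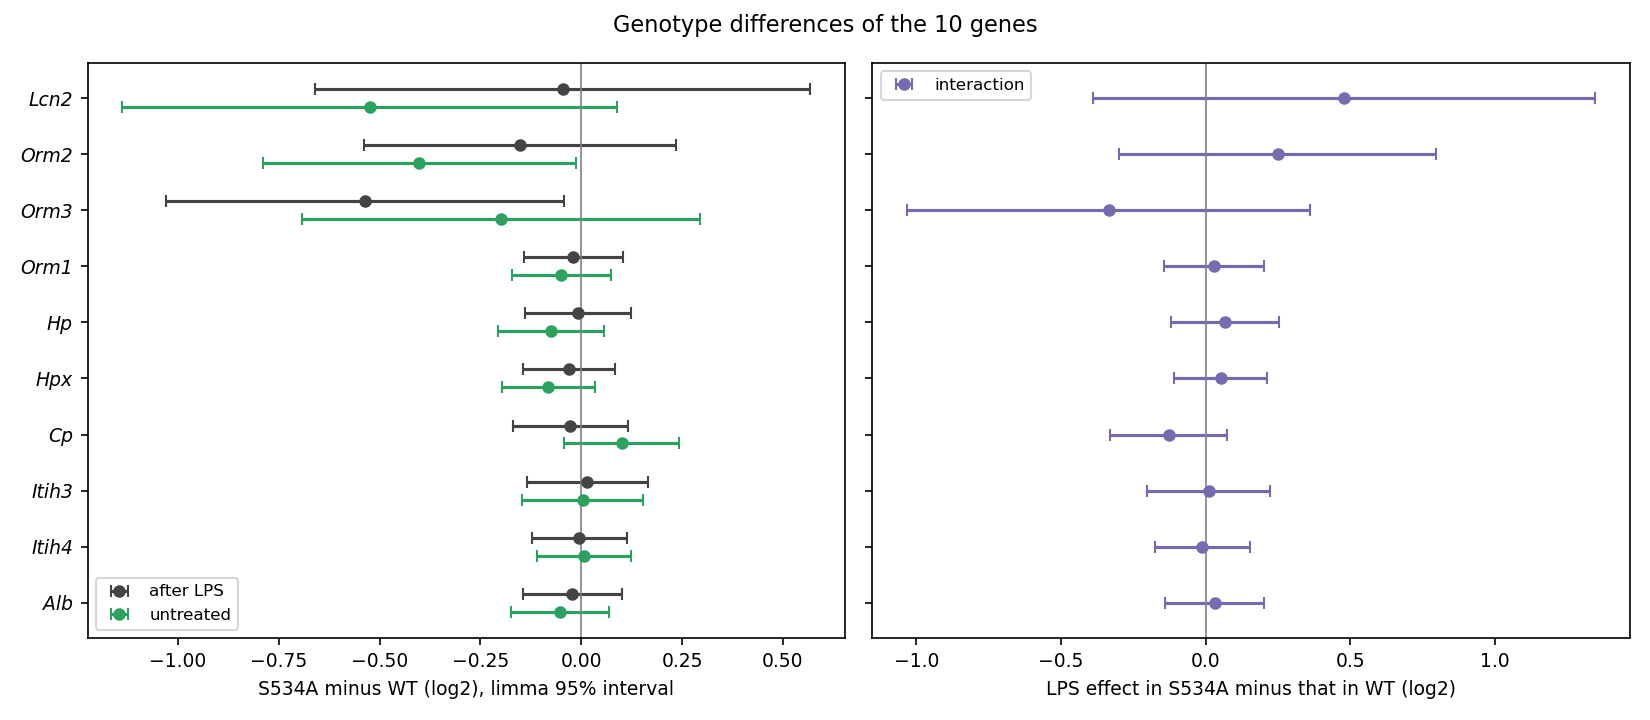
Left, log2 difference S534A minus WT after LPS and untreated for each gene; right, the interaction, or how much larger the difference after LPS was in S534A than in WT; bars are limma's 95% intervals. Only Orm3 after LPS and Orm2 untreated have intervals that leave out 0, with adjusted p-values of 1 and 0.549.

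For some of the 10 genes, untreated livers differed among themselves more than treated ones. For Lcn2 the pooled SDs stand above; the SD of untreated groups was 2.40 times that after LPS for Itih3 and 1.95 times for Hp, but 0.87 times for Orm3 and 0.97 times for Orm1. The untreated arrays also differed in clock genes. A clock score was taken as the log2 level of Arntl subtracted from the average of Tef, Dbp and the 3 Per genes. It was -1.70, 3.43, -1.77 and 3.47 in WT replicates 1 to 4 and 3.33, 3.41, -2.55 and 0.96 in S534A. After LPS it ran from -0.70 to 1.63.

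Orm2 and Orm3 were lower, and Itih3 higher, in the 2 untreated WT arrays of negative score than in the other 2. The S534A array of negative score had the lowest Orm2 (9.80) and Orm3 (6.70) and the highest Itih3 (12.83) of its group. That array was the highest of its group for 6 of the 10 genes and the lowest for 2. Untreated WT replicate 2, of positive score, was the lowest of its group for 7 and the highest for 2. The pattern of Itih3 is therefore not particular to that gene. Orm2 did not separate by score over both genotypes, since S534A replicates 2 and 4 (9.91 and 9.94) lay below the WT arrays of negative score. Lcn2 read 10.48, 9.24 and 9.04 in the 3 arrays of negative score, above 8.23, 8.73, 8.78 and 8.88 in 4 of the other 5, and WT replicate 4 went the other way at 9.59. Leaving out these 3 arrays gave WT rises of 1.81 for Orm2, 0.94 for Orm3, 0.70 for Itih3 and 4.77 for Lcn2, and the call of each stood. The untreated genotype difference of Orm2 was then -0.70 (adjusted p = 0.41) and that of Lcn2 -0.11. The part of collection state in these values was not tested.

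**Figure D4:**
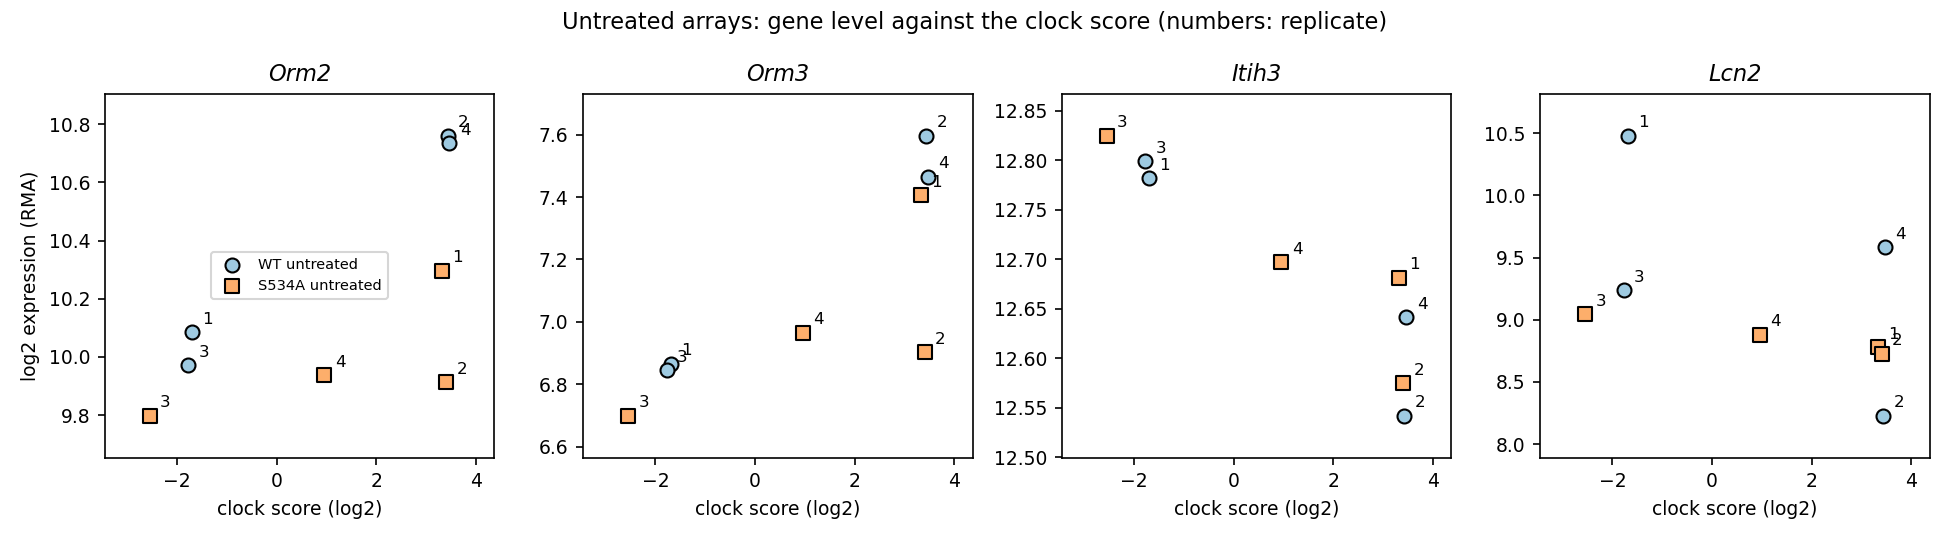
Log2 expression (RMA) of Orm2, Orm3, Itih3 and Lcn2 in the 8 untreated arrays against the clock score, with numbers for the replicate. The 3 arrays of negative score have low Orm3 (6.70 to 6.87) and high Itih3 (12.78 to 12.83); their Lcn2 (9.04 to 10.48) lies above 4 of the other 5 arrays and WT replicate 4 (9.59) is the exception.

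The remaining acute-phase genes set the scale of these rises. Of 18 other positive acute-phase genes tested, 18 were higher in WT and 18 in S534A, with a median of 1.31 in WT. The largest were A2m, a protease inhibitor (5.51 ± 0.13 in WT), and the serum amyloid genes Saa1 (5.20 ± 0.37) and Saa3 (4.95 ± 0.15). Those lists were put together with results of these data known, so the counts are descriptions. Among 14 genes of negative acute-phase and carrier proteins, 2 were lower in WT, Igfals, which stabilises circulating IGF complexes (-1.34 ± 0.14), and the vitamin E binder Afm (-0.48 ± 0.08). Serpina7, which carries thyroid hormone, was higher (1.16 ± 0.23). In S534A 3 were lower and 1 higher. Of all genes, 14.9% were higher and 29.9% lower in WT, and 14.2% and 31.2% in S534A. With arrays centred on their medians 7 of the 14 were lower in WT and 5 in S534A.

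Lcn2 and the 3 orosomucoids were the 4 genes called higher among 13 tested members of the lipocalin family, a set of small barrel-shaped carriers, and none was called lower in either genotype. Apom (-0.18 ± 0.07, adjusted p = 0.0562), C8g and Rbp4 missed the threshold in WT, and the 3 were called lower there with centred arrays. In S534A, C8g and Rbp4 were also called lower with centred arrays. Apom there ran from 0.06 to 0.19 over the alternatives and was called higher with array quality weights. Among 10 tested genes of the inter-alpha-trypsin inhibitor complex and its hyaluronan partners, 4 were higher and 1 lower in each genotype. The 4 were Itih3, Itih4, the hyaluronan receptor Cd44 (1.17 ± 0.11 in WT, 0.94 ± 0.11 in S534A) and Tnfaip6, the enzyme that transfers heavy chains to hyaluronan (0.47 ± 0.14 and 0.46 ± 0.14). The hyaluronidase Hyal2 was lower, with a difference of -0.94 ± 0.09 in WT. Beside the counts of both lists, 14.9% of all genes were higher and 29.9% lower in WT, and 14.2% and 31.2% in S534A.

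The other chains of the complex missed the threshold: Itih1 at -0.07 ± 0.07, Itih2 at -0.04 ± 0.08 and Ambp, which encodes the bikunin precursor, at 0.08 ± 0.05 in WT. With arrays centred on their medians, Itih1 was called lower in WT, at -0.18 with an adjusted p of 0.0263. Itih3 and Itih1 are neighbours in RefSeq, and the rise was called for Itih3 and not for Itih1.

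Genes that take up or break down what Hp, Hpx and Lcn2 bind were called in both directions, in shares near those over all genes. Of 11 tested, 2 were higher and 4 lower in each genotype, against 14.9% and 29.9% of all genes in WT and 14.2% and 31.2% in S534A. Centred arrays gave 6 lower in WT. In S534A the higher count was 1 in 9 of the 27 alternatives, among them centred arrays and the fits without any of S534A untreated replicates 1 to 4 in turn or without S534A LPS replicate 1 or 2. Hmox1, which degrades haem, rose by 1.43 ± 0.25 in WT and 1.54 ± 0.25 in S534A. Cd163, the macrophage receptor for haptoglobin-haemoglobin complexes, changed by -1.27 ± 0.20 in WT. Bdh2, linked to synthesis of a mammalian siderophore, changed by -0.90 ± 0.17 in WT and the haem transporter Slc48a1 by -0.67 ± 0.09. Lrp1, the receptor for haem-hemopexin, was at 0.14 ± 0.06 (adjusted p = 0.0672).

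Of 16 tested iron and copper genes, 4 were higher and 6 lower in WT, and 5 and 6 in S534A, beside the shares over all genes just given. The S534A call of Fth1, not made in WT, was lost in 19 of 27 alternatives, and the WT call of Hamp in 7. The metalloreductase Steap4 (3.16 ± 0.20), the metal importer Slc39a14 (2.06 ± 0.20) and Slc11a2 (1.54 ± 0.09) rose in WT. Slc40a1, the iron exporter ferroportin, which works with ferroxidases such as ceruloplasmin, was lower, with a difference of -3.16 ± 0.19 in WT and -3.19 ± 0.19 in S534A. Centring the arrays gave 3 higher in each genotype.

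**Figure D5:**
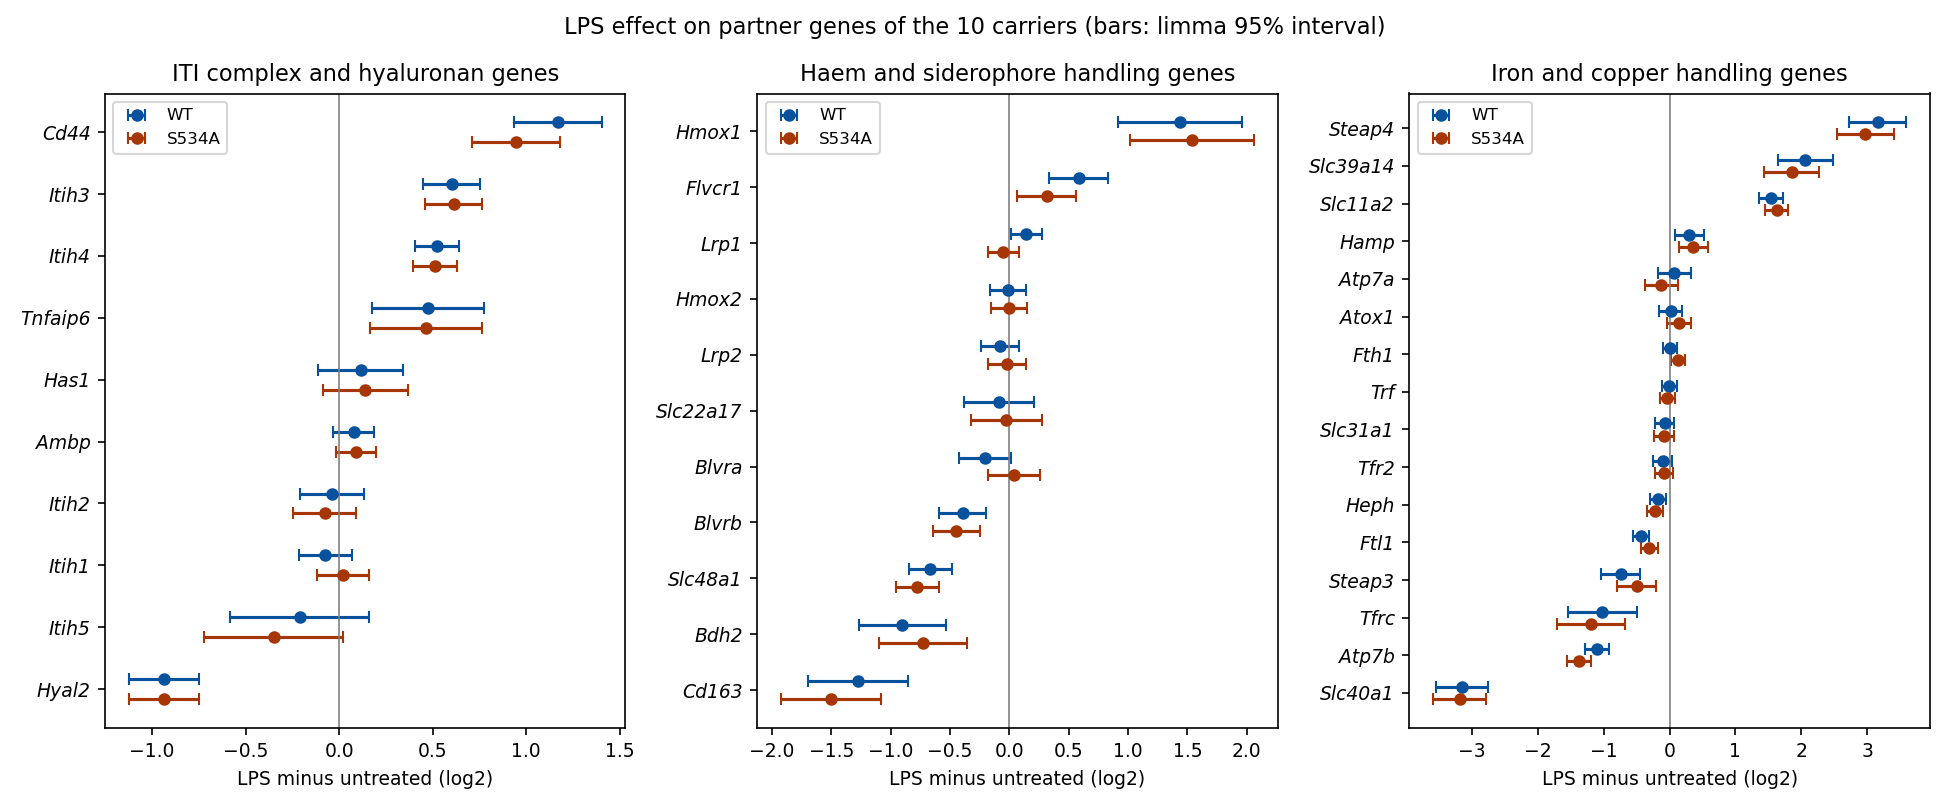
Log2 difference (LPS minus untreated) in WT and S534A, with limma's 95% interval, for genes of the inter-alpha-trypsin inhibitor complex, haem and siderophore handling, and iron and copper handling. Itih3 and Itih4 stand with Cd44 and Tnfaip6 above 0 while Itih1, Itih2 and Ambp sit at it, and Slc40a1 has the lowest value of the 3 panels, -3.16 in WT.

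The regulators of these genes were mostly higher: 19 of 25 tested were higher and 4 lower in WT, and 16 and 4 in S534A. Of all genes, 14.9% were higher and 29.9% lower in WT, and 14.2% and 31.2% in S534A. The interaction called 0 of the 25. The WT call of Il6ra, not made in S534A, was lost in 16 of 27 alternatives. The oncostatin M receptor Osmr (3.18 ± 0.11), the feedback inhibitor Socs3 (2.79 ± 0.31) and the cytokines Il1b (2.66 ± 0.14) and Tnf (2.52 ± 0.16) had the largest WT values.

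Markers of other cells moved with treatment. Beside the counts that follow, 14.9% of all genes were higher and 29.9% lower in WT, and 14.2% and 31.2% in S534A. Neutrophils also make Lcn2 and orosomucoid. Of 13 neutrophil markers tested, 11 were higher in each genotype, led by S100a9 at 2.92 ± 0.18 in WT, and 0 were lower. Their mean log2 level lay between 5.71 and 5.81 in untreated WT arrays and between 7.03 and 7.56 after LPS; the S534A ranges were 5.74 to 5.85 and 7.10 to 7.42. The granule genes Elane (-0.13 ± 0.10) and Mpo (0.06 ± 0.08) were not called. Of 13 Kupffer cell markers, 11 were lower and 1, Marco, higher (1.28 ± 0.14 in WT) in each genotype. Of 11 sinusoidal endothelial markers, 9 were lower and 2 higher, Lyve1 (1.35 ± 0.16 in WT) and Cdh5 (0.21 ± 0.08, a call lost in WT under 11 of 27 alternatives). Stellate cell markers were lower in 7 of 11 and higher in 0. Of 11 hepatocyte markers, 2 were higher and 1 lower in WT and 0 and 1 in S534A, with a list mean between 13.07 and 13.19 in all 16 arrays; centred arrays gave 5 lower in WT and 6 in S534A. The part of these shifts in the rises of the 10 genes was not tested.

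Likeness was measured as the root mean square log2 difference between profiles, each taken as deviations from the gene's mean over 16 arrays. By that measure, the gene most like Orm1 and second most like Hpx was the fibrinogen chain Fgb (0.063 and 0.047), and Fgg was nearest to Cp (0.068). Itih4 was nearest to complement factor Cfb (0.056), Hp to Ifitm2 (0.069) and Itih3 to Rrbp1 (0.064). Profiles with a large rise had more distant neighbours: Ccl2 for Lcn2 (0.412), Rnf19b for Orm2 (0.241) and Stxbp3 for Orm3 (0.309). Alb was nearest to Baiap2l1 (0.029). Among 14 neighbouring genes outside the set that were tested, 2 were higher and 5 lower in WT, near the 14.9% and 29.9% of all genes. Txnl4b beside Hp changed by -1.43 ± 0.14, and Mustn1 beside Itih4 by -0.91 ± 0.08.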

How the data were processed

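The deposited values are log2 expression levels, made with RMA per the submitters' processing notes, in a version not given in the sources used here. Signal over background was not assessed, since no scanner files were used here; precision is set by the 4 arrays a group. Array medians ran from 6.25 to 6.42. Of 35556 probe sets, 21789 had 1 gene symbol, and 15908 genes were kept (above the 30th percentile of the array in at least 4 of 16 arrays, probe set of highest mean).

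The model, run in R 4.3.3 with lmFit, contrasts.fit and eBayes of limma 3.58.1, had 4 group means over 16 arrays, with 12 residual and 4.28 prior degrees of freedom. Tests were two-sided, with Benjamini-Hochberg adjustment over 15908 genes and a threshold of 0.05. The fit was tested on simulated data, with added changes of at least 1 log2 and the same spread of a gene in every group. That test does not cover smaller changes, or spreads that differ between groups as for Lcn2. Errors after ± are standard errors of the fit unless called SD. The 10 genes and all lists were chosen with earlier results of these data known. Named genes are the 10, Rela, the 4 largest called changes of a list in WT, nearest profiles and neighbours; other names were chosen after their values were seen, and 1043 genes with provisional symbols were left out of the nearest profiles. The labels do not say whether equal replicate numbers pair samples, and same-number correlations (-0.49 to 0.59) cannot settle it. The main fit did not pair them. The 27 alternatives were 16 fits each without 1 replicate and 11 other settings. Neighbours and promoter letters come from RefSeq GRCm38.p6. Figures used Python 3.11.15 and matplotlib 3.10.9.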

Additional observations from a re-analysis of the deposited data

How the results depend on the processing

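Under 27 alternatives, 1340 values of the 10 genes kept their direction where called and their side of the threshold, and 9 of 10 were higher after LPS in each genotype in every run. Part of this was fixed in advance. Other filters, the mean of probe sets, the stricter threshold and the replicate block cannot change a log2 difference of these genes. The same holds for trended and robust eBayes, fits of only the groups compared, and leaving out an array of a group not compared. Such runs can change only standard errors, adjusted p-values or the threshold. Uncalled values changed sign 37 times. Without 1 replicate at a time, the WT rise of Lcn2 ran from 3.91 to 4.66 and the S534A rise of Orm3 from 0.79 to 1.11. The untreated Lcn2 difference between genotypes ran from -0.91 to -0.16, and its interaction from 0.11 to 0.86. Centring each array moved the median of all genes in WT from -0.05 to -0.16 and in S534A from -0.03 to -0.13, and the share of called genes that were higher from 33.3% to 22.1% and from 31.3% to 21.5%.

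Counts over all genes moved more. Array quality weights called 3399 genes higher after LPS in S534A, against 2258. Between untreated genotypes, 1 gene was higher and 1 lower. Weights gave 215 and 155, and trended and robust eBayes 2 and 2. A second quantile normalization gave 2 higher, and centring 3 lower. Fits with the replicate block, with an adjusted p under 0.01 or with only the groups compared gave 0 and 0, and leaving out the 3 arrays of negative clock score gave 0 higher. Without 1 replicate at a time they ran from 0 to 4 higher and 0 to 6 lower. For the interaction, weights gave 2 higher and 1 lower, and runs without 1 replicate 0 to 2 and 0 to 1. The causes of these shifts were not tested. The replicate block changed no call of the 10 genes and left 9 of 10 higher. Each group holds all replicate numbers, so the block could not change a log2 difference, and the WT rise of Lcn2 stayed at 4.30. Only 4 arrays a group were available, so small genotype differences could not be resolved.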
